A study of Homo sapiens and Mus musculus with 22 samples.

Results

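The comparison described here sets the PD-L1 low fraction of H69M against H69, with 3 RNA-seq libraries in each group out of 22 in the series. NCI-H69, written H69 below, is an established human small cell lung cancer (SCLC) line, and it was sequenced without sorting. H69M was derived from H69 by a procedure that the labels take from an earlier study. H69M was sequenced whole and as fractions sorted on PD-L1, the ligand of the checkpoint receptor PD-1 and the product of CD274. The PD-L1 low fraction carries the sort label PD-L1 low/neg and, like H69, the MHC class I status low/neg. Unsorted H69M and its PD-L1 high fraction, also 3 libraries each, are labelled MHC class I high and serve below to place the PD-L1 low values. They also entered the filter on counts and the shared estimate of spread. The 6 libraries were chosen by these labels and not by expression, and all 15445 genes with enough counts were tested, of 25435 in the table. No drug was given to any of these groups according to the labels. Since the PD-L1 low cells were sorted and the H69 cells were not, an effect of sorting and a difference between the lines cannot be told apart. The labels do not say whether H69M is 1 clone, how pure the sort was, or whether the 3 libraries of a group came from separate cultures, and the p-values therefore cover no more than the variation among these libraries.

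SCLC is a tumour of neuroendocrine cells, which carry secretory granules and synaptic proteins and depend on lineage transcription factors. SCLC lines can also give rise to adherent cells with mesenchymal genes, active YAP and high MHC class I. Stress pathways recur in the results. In the integrated stress response, kinases that sense amino acid shortage, unfolded protein in the endoplasmic reticulum (ER) or other stress phosphorylate the initiation factor eIF2, which favours translation of the transcription factor ATF4. ATF4 with C/EBP partners then activates genes for amino acid synthesis, amino acid uptake and tRNA charging. In the hypoxia response, the factor HIF escapes degradation when oxygen is low and activates genes for glucose uptake, glycolysis, acid export and blood vessel growth.

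Levels are CPM, a gene's count divided by its library's total after TMM scaling of that total and brought to a common unit, with no correction for gene length, so they compare libraries and not genes. The 6 libraries held 12814594 to 26834561 counts. Fold changes are fitted log2 values ± SE, PD-L1 low minus H69, and adjusted p-values come from edgeR's quasi-likelihood test with the Benjamini-Hochberg method. A gene is called changed where its adjusted p is under 0.05. The PD-L1 low fraction had the neuroendocrine markers of H69. INSM1, the zinc finger factor of neuroendocrine cells, was at 1606, 1597 and 1679 CPM in H69 and 2466, 2344 and 2312 CPM in PD-L1 low. SYP, a synaptic vesicle protein, was at 139.9 ± 14.0 CPM in H69 and 143 ± 8.66 CPM in PD-L1 low (SD, n = 3), and NCAM1, a neural adhesion molecule, at 523 ± 10.2 and 413 ± 3.29 CPM. The sorted gene itself, CD274, was near 0 in both groups. Its levels were 0.0402, 0.113 and 0.0807 CPM in H69, 0.222, 0.140 and 0.434 CPM in PD-L1 low, and on average 13.3 ± 0.424 CPM in PD-L1 high (SD, n = 3). The small CD274 difference between PD-L1 low and H69 (1.55 ± 0.67, adjusted p = 0.042) lost its call when any of 4 of the 6 libraries was left out. These are bulk libraries, so fewer cells expressing a gene and less RNA per cell cannot be told apart.

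The sorted fraction differed widely from H69. Of all genes tested 75.9% were called, and 25.5% were called with at least a 2-fold difference. In all, 6023 genes were higher (39.0% of those tested) and 5700 were lower (36.9%), and the median log2 fold change was 0.02. With a 2-fold minimum added, 2617 genes were higher (16.9%) and 1316 were lower (8.52%). The excess of large rises sat among genes of low level: of 1488 genes with a mean under 1 CPM over the 12 libraries, 533 were at least 2-fold higher and 252 at least 2-fold lower. Among the 2679 genes at 100 CPM or more, the corresponding counts were 122 and 96. These percentages are the background for each list below. List members were chosen by function, but with earlier results of these data known, so the list counts are descriptions and not independent tests. CPM cannot show a change in total RNA per cell.

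**Figure D1:**
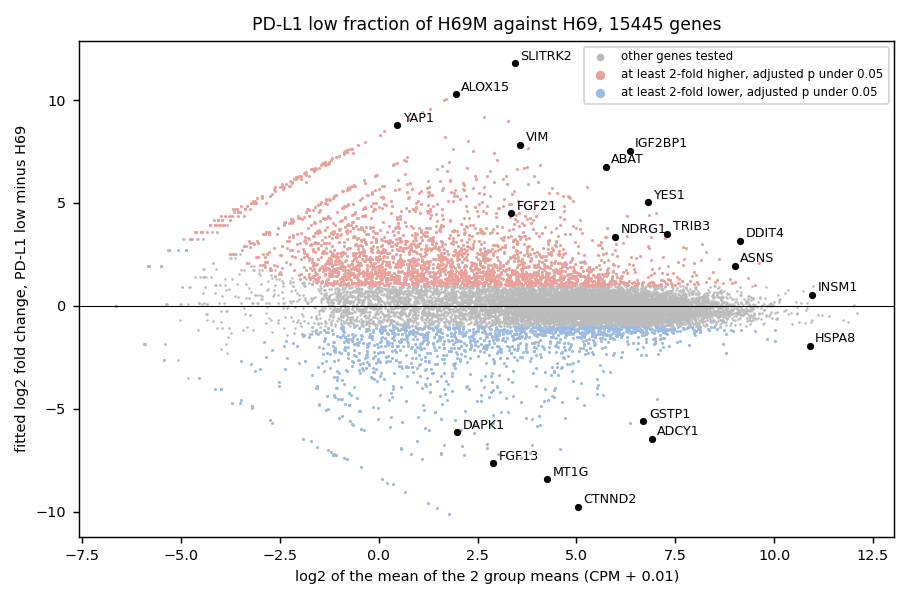
Each point is 1 of 15445 genes, with the mean level of the PD-L1 low and H69 groups on the horizontal axis (log2 CPM) and the fitted log2 fold change on the vertical axis. Red and blue mark genes at least 2-fold higher or lower with an adjusted p under 0.05, and the diagonal bands at the left are genes with few counts or none in 1 group. DDIT4, ASNS and INSM1 lie above the line among abundant genes and HSPA8 below it.

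Most genes of the amino acid response were above their H69 levels, by widely differing amounts. Of 51 genes on the list of ATF4 and its targets, 50 were tested, 45 were higher and 2 were lower, and 23 were at least 2-fold higher, against 39.0%, 36.9% and 16.9% of all genes. The median log2 fold change of the list was 0.94. Tested against a 1.5-fold change, 32 of the 50 were higher and 0 lower. The PD-L1 low group had the highest mean of the 4 groups for 44 of the 50, or 88%, where 27.7% of all genes did.

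ATF4 and its partner factors ATF3, DDIT3, ATF5 and CEBPB were higher, by different amounts. ATF4 was at 301, 318 and 344 CPM in H69 and 449, 438 and 432 CPM in PD-L1 low (0.45 ± 0.05, adjusted p = 9.59e-08); its activity is known to be set mostly by translation, which these libraries do not measure. ATF3, a stress-induced partner and target, went from 15.9, 17.6 and 15.8 CPM to 110.2, 108 and 109 CPM (2.73 ± 0.07, adjusted p = 8.38e-18). Both factors were higher in every PD-L1 low library than in any H69 library; of all genes, 75.5% had groups that did not overlap, in either direction. DDIT3 (CHOP), which acts downstream of ATF4, rose by 1.22 ± 0.07, ATF5 by 1.55 ± 0.06 and CEBPB by 1.77 ± 0.08, with adjusted p-values of 1.53e-12, 1.42e-14 and 5.8e-14.

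Among the effectors, ASNS makes asparagine and is a classical ATF4 target. It stood at 208, 216 and 212 CPM in the H69 libraries and 818, 827 and 791 CPM in the PD-L1 low libraries, a log2 fold change of 1.94 ± 0.06 (adjusted p = 1.84e-16). The pseudokinase TRIB3 went from 26.4, 23.3 and 26.96 CPM to 301, 285 and 278 CPM (3.50 ± 0.08, adjusted p = 2.47e-18). CHAC1, which breaks down glutathione, went from 11.0, 10.01 and 13.2 CPM to 60.5, 58.4 and 64.6 CPM (2.45 ± 0.10, adjusted p = 2.35e-14). For each of the 3 genes the groups were far apart and the spread within a group was small. The secreted hormone FGF21 was at 0.765, 1.02 and 0.726 CPM in H69 and 20.7, 18.6 and 19.02 CPM in PD-L1 low (4.49 ± 0.14, adjusted p = 3.37e-16), and in unsorted H69M and PD-L1 high it was lower still, at 0.260 ± 0.0581 and 0.182 ± 0.0553 CPM (SD, n = 3). INHBE, an activin subunit, and ADM2, a peptide hormone, rose by 2.35 ± 0.08 and 2.16 ± 0.09, and GDF15, a stress hormone, by 0.89 ± 0.09.

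Both inhibitors of the growth kinase mTORC1 on the list were high. DDIT4 (REDD1) had levels of 109.7, 115 and 113 CPM in H69 and 1068, 1075 and 898 CPM in PD-L1 low (3.17 ± 0.09, adjusted p = 1.03e-16), and replicate 3 was the lowest of the PD-L1 low libraries. SESN2, a leucine sensor, rose by 2.21 ± 0.06 (adjusted p = 8.88e-17). EIF4EBP1, which holds back cap-dependent translation, rose by 0.85 ± 0.06 (adjusted p = 3.12e-10).

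All 3 enzymes that make serine from glucose were higher, PHGDH by 1.44 ± 0.06, PSAT1 by 1.26 ± 0.07 and PSPH by 0.45 ± 0.06. Enzymes of mitochondrial folate metabolism were higher too. ALDH1L2 went from 4.75, 3.97 and 4.92 CPM to 38.3, 43.4 and 38.5 CPM (3.16 ± 0.09, adjusted p = 2.05e-16), MTHFD2 rose by 1.67 ± 0.06 and SHMT2 by 1.13 ± 0.05. PCK2, the mitochondrial enzyme that makes phosphoenolpyruvate, rose by 1.93 ± 0.06 (adjusted p = 1.31e-16). In the transsulfuration pathway from methionine to cysteine the enzymes parted, with CBS higher (0.95 ± 0.05, adjusted p = 2.28e-12) and CTH lower (-0.49 ± 0.12, adjusted p = 0.00115).

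Amino acid transporters covered a wide range. SLC1A5, which imports glutamine, had levels of 20.7, 20.4 and 21.8 CPM in H69 and 229, 204 and 214 CPM in PD-L1 low (3.37 ± 0.07, adjusted p = 5.03e-19). Its level in PD-L1 high was 208 ± 10.8 CPM (SD, n = 3), and the 2 fractions of H69M differed by 0.05 ± 0.06 on the log2 scale (adjusted p = 0.367). The cystine importer SLC7A11 rose by 1.54 ± 0.10 and the large neutral amino acid exchanger SLC7A5 by 1.29 ± 0.07. SLC3A2, the partner chain of both, was at 275 ± 5.61 CPM in H69 and 292 ± 3.11 CPM in PD-L1 low (SD, n = 3) and was not called (0.09 ± 0.05, adjusted p = 0.118).

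The aminoacyl-tRNA synthetases, which load tRNAs with amino acids, moved less. AARS rose the most, from 185, 182 and 189 CPM to 474, 455 and 474 CPM (1.33 ± 0.05, adjusted p = 1.87e-15). SARS, MARS, CARS, GARS and YARS rose by 0.60 to 0.94, NARS, TARS and IARS by 0.18 to 0.34. EPRS was not called (0.08 ± 0.05, adjusted p = 0.17) and WARS was lower (-0.20 ± 0.05, adjusted p = 0.00145). Scaling by library totals alone called EPRS (0.18), called SLC3A2 (0.18) and lost WARS (-0.10).

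With C/EBP partners, ATF4 is known to bind a composite response element, and promoters of the list were searched for its core letters. Promoter sequences from RefSeq, taken on GRCh38.p14 from 250 bases before to 50 bases after each gene's start, were matched by symbol to 39 of the 50 tested members. The letters TGATGNAA were searched on both strands and were found in 11 of the 39 (28.2%), against 1270 of 35116 promoters in the whole table (3.62%). Members at least 2-fold higher held it in 5 of 19 promoters (26.3%) and the others in 6 of 20 (30.0%). Since the list was made of known ATF4 targets, an excess over all promoters could be foreseen and is no result of these libraries. A match describes letters and is not evidence of binding in these cells. The 250 bases before the start are shown for 3 strongly raised members that were picked because they hold a match. They run 5′ to 3′ on the gene's own strand, with the matching letters in capitals. The stretches are chr7:97872409-97872658 (minus strand) for ASNS, chr15:40953221-40953470 (plus strand) for CHAC1 and chr19:48755274-48755523 (plus strand) for FGF21. In ASNS the match lies on the gene's strand with its first base 68 bases upstream of the start, and in CHAC1 and FGF21 it lies on the other strand, 209 and 54 bases upstream.
ASNS: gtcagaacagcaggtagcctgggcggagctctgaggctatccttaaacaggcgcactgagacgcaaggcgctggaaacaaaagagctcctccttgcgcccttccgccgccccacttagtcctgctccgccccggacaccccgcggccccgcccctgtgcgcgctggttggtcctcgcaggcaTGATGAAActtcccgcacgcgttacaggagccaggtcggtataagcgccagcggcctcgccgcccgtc
CHAC1: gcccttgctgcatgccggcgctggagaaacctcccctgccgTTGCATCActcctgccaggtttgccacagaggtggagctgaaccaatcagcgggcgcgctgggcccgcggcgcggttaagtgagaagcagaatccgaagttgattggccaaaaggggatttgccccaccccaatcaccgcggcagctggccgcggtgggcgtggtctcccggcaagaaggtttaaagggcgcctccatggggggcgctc
FGF21: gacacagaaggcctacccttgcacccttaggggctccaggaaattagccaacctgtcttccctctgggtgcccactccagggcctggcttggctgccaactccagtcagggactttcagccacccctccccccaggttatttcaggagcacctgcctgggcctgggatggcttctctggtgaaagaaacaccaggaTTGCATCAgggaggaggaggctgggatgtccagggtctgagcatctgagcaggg

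**Figure D2:**
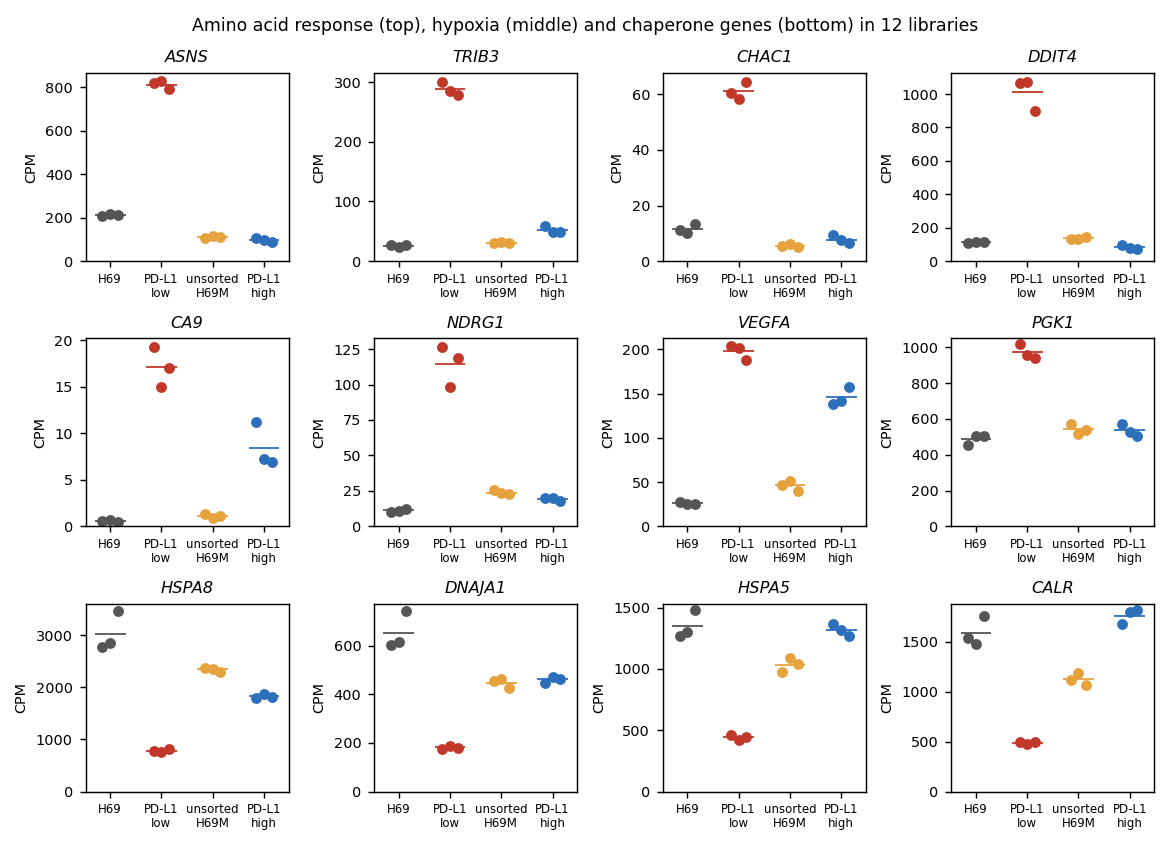
CPM of 12 genes in the 12 libraries, with 1 point per library and a line at each group mean (n = 3), on linear axes from 0. The amino acid response and hypoxia genes of the upper rows are highest in all 3 PD-L1 low libraries, and the chaperone genes of the lower row are lowest there, with HSPA8 at 761 to 814 CPM against 2772 to 3469 CPM in H69.

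Genes of glycolysis and the hypoxia response also rose broadly. All 39 list members in the table were tested, of which 30 were higher, 2 were lower and 17 were at least 2-fold higher, and the median log2 fold change was 0.88 (0.78 with the 2 genes without a count in H69 at their bound). The rise was uneven across the list. CA9, a carbonic anhydrase at the cell surface that controls pH, went from 0.563, 0.680 and 0.484 CPM in H69 to 19.3, 15.02 and 17.1 CPM in PD-L1 low (4.83 ± 0.22, adjusted p = 1.55e-13). NDRG1, a stress-induced protein, was at 10.4, 11.1 and 12.4 CPM in H69 and 127, 98.5 and 119 CPM in PD-L1 low (3.36 ± 0.09, adjusted p = 8.16e-17). The angiogenic ligand VEGFA went from 27.1, 25.1 and 25.6 CPM to 203, 202 and 187 CPM (2.93 ± 0.08, adjusted p = 3.71e-17). No PD-L1 low value of these 3 genes came near the H69 values. ANGPTL4, a secreted regulator of lipid uptake, had no count in H69 and was at 1.37, 0.977 and 1.23 CPM in PD-L1 low, at least 25.3-fold higher when 3 counts over the group are taken as the H69 limit.

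The steps of glycolysis moved by unequal amounts. HK2, which traps glucose, had levels of 10.8, 7.97 and 10.1 CPM in H69 and 103, 91.4 and 93.8 CPM in PD-L1 low (3.34 ± 0.09, adjusted p = 5.23e-17). SLC16A3, which exports lactate, rose from 1.41, 1.59 and 1.13 CPM to 32.2, 24.8 and 33.3 CPM (4.39 ± 0.15, adjusted p = 1.92e-15), although PD-L1 high was higher again at 87.4 ± 5.97 CPM (SD, n = 3). PDK1, which keeps pyruvate out of mitochondria, rose by 2.15 ± 0.09 and the neural aldolase ALDOC by 3.79 ± 0.14. PFKFB3 and PFKFB4, which speed up glycolysis through fructose 2,6-bisphosphate, rose by 1.89 ± 0.07 and 2.68 ± 0.12. In the middle of the pathway, PGK1 rose by 1.00 ± 0.06, ENO1 by 0.78 ± 0.06 and LDHA by 0.53 ± 0.06. GAPDH (0.02 ± 0.06, adjusted p = 0.73), TPI1 (0.00 ± 0.05, adjusted p = 0.996) and PKM (-0.01 ± 0.05, adjusted p = 0.859) were not called, and GPI was lower (-0.20 ± 0.05, adjusted p = 0.00212). With library totals alone as the scale, GAPDH was called at 0.12 and GPI was not (-0.10). GAPDH levels of the 2 groups overlapped, at 3764, 4068 and 4532 CPM in H69 and 4444, 4021 and 4103 CPM in PD-L1 low.

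The other lower member besides GPI was EGLN3. It encodes a prolyl hydroxylase that marks HIF for degradation, and fell from 12.6, 13.7 and 12.8 CPM in H69 to 1.91, 2.19 and 1.95 CPM in PD-L1 low (-2.69 ± 0.12, adjusted p = 6.95e-14). Its relative EGLN1 rose by 0.30 ± 0.06 (adjusted p = 0.000324). HIF protein was not measured here. HIF1A, encoding the oxygen-regulated HIF subunit, was at 277 ± 23.2 CPM and 314 ± 14.0 CPM (SD, n = 3) and rose by 0.18 ± 0.06 (adjusted p = 0.00849); leaving out H69 replicate 1 gave 0.12 and no call (adjusted p = 0.0711).

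The core of the HIF site, ACGTG, was searched in the same RefSeq promoter windows on both strands, where the palindrome CACGTG counts on each strand. It was found in 14 of 34 matched list members (41.2%) and in 7518 of 35116 promoters overall (21.4%). The list was made of glycolysis and hypoxia genes, so an excess over all promoters could be foreseen here too. Of the members at least 2-fold higher, 9 of 13 held it (69.2%), and of the others 5 of 21 (23.8%); both are counts of letters only. The 250 bases before the start of 3 raised members that hold it are shown as above, with the matches in capitals. They are chr9:35673678-35673927 (plus strand) for CA9, chr17:28576896-28577145 (minus strand) for ALDOC and chrX:78103998-78104247 (plus strand) for PGK1. Within these bases CA9 has 1 match with its first base 18 bases upstream, PGK1 has 2, at 202 and 183 bases, and ALDOC has 3, of which 2 overlap in 1 palindrome at 240 bases and the other lies at 28 bases.
CA9: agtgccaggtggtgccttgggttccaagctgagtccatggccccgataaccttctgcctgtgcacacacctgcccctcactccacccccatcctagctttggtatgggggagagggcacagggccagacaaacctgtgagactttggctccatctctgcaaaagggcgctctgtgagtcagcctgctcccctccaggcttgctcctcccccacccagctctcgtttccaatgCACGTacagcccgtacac
ALDOC: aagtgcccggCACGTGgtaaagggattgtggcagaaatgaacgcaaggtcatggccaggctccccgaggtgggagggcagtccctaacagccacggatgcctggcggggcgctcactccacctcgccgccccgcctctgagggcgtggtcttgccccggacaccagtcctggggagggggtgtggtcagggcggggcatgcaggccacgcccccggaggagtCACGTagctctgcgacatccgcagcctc
PGK1: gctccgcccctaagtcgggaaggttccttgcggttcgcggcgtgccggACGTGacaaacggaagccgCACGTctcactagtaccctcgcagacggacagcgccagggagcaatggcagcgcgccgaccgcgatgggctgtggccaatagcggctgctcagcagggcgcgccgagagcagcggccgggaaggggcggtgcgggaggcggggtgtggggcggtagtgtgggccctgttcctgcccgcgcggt

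HSPA8, DNAJA1, HSPA5 and CALR, which all serve protein folding, are described because they were among the 12 genes with the largest CPM falls. HSPA8 (HSC70), the constitutive cytosolic chaperone, had the largest difference in CPM, not corrected for length, of the genes at least 2-fold lower, from 2772, 2841 and 3469 CPM to 779, 761 and 814 CPM (-1.95 ± 0.07, adjusted p = 1.75e-15). Its co-chaperone DNAJA1 fell from 604, 614 and 745 CPM to 176, 188 and 181 CPM (-1.85 ± 0.07, adjusted p = 4.26e-15). In the ER, HSPA5 (BiP), the central chaperone and sensor of the unfolded protein response, fell from 1273, 1300.0 and 1480.1 CPM to 459, 418 and 448 CPM (-1.61 ± 0.06, adjusted p = 9.31e-15). All 3 PD-L1 low libraries lay below all 3 H69 libraries for these genes, and H69 replicate 3 was the highest library each time. Groups lay apart, in either direction, for 75.5% of all genes. CALR, a lectin chaperone that also loads MHC class I, went from 1533, 1478 and 1753 CPM to 500.1, 471 and 495 CPM (-1.70 ± 0.06, adjusted p = 5.14e-15).

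Of 19 genes of the unfolded protein response, 11 were lower, 6 were higher, and the median log2 fold change was -0.61. Folding factors among the lower members were CRELD2 (-1.66 ± 0.06), SDF2L1 (-1.47 ± 0.06), PDIA4 (-1.02 ± 0.05), DNAJB11 (-0.89 ± 0.07), HYOU1 (-0.87 ± 0.04) and HSP90B1 (-0.79 ± 0.05). The higher members included the sensors ERN1 (1.36 ± 0.08, adjusted p = 9.35e-12) and ATF6 (1.04 ± 0.05, adjusted p = 2.2e-13) and HERPUD1 (1.41 ± 0.06, adjusted p = 7.43e-14), which serves the degradation of ER proteins. XBP1, the factor that the ERN1 branch activates by splicing, was at 226 ± 15.9 CPM and 226 ± 4.67 CPM (SD, n = 3) and was not called (-0.00 ± 0.05, adjusted p = 0.993); spliced and unspliced forms are not separated in a gene count.

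**Figure D3:**
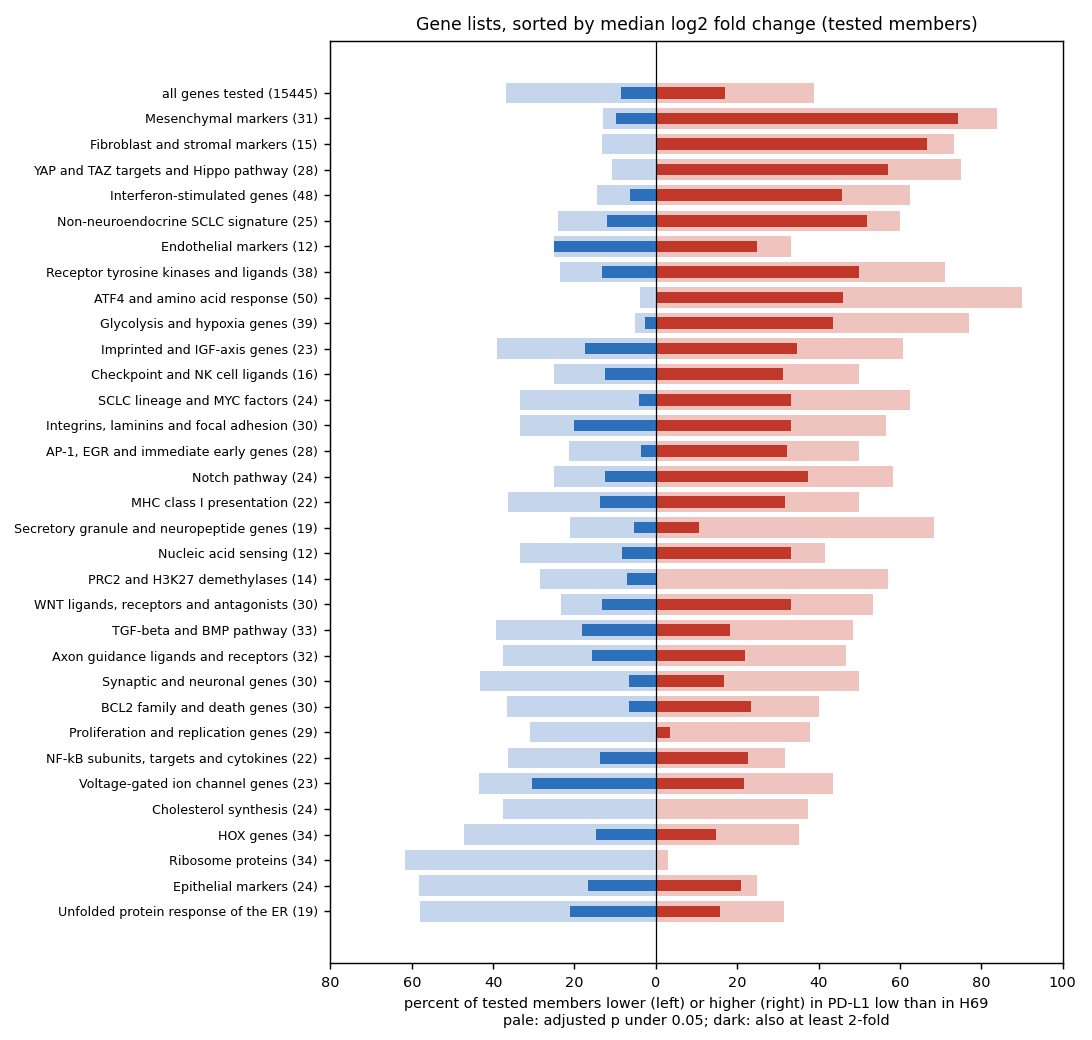
For gene lists with at least 12 tested members (in parentheses), bars give the percent lower (left) and higher (right) in PD-L1 low than in H69. Bars are pale at an adjusted p under 0.05 and dark where the change was also at least 2-fold. The list of D cyclins, CDK inhibitors and p53 targets, with 20 tested members, is left out of the drawing. All genes are in the top row, with 39.0% higher and 36.9% lower. The ATF4 row has the longest pale bar to the right, and ribosome proteins, epithelial markers and the unfolded protein response have the longest pale bars to the left.

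The PD-L1 low fraction also differed from the line it was sorted from in many of these genes. Unsorted H69M was placed for each gene between its fractions, with 0% at the PD-L1 high mean and 100% at the PD-L1 low mean, for genes called with at least a 2-fold difference between the fractions and at 1 CPM or more in the higher fraction. For the 2341 genes higher in PD-L1 low the median place was 42.5%, and for the 2371 genes lower in PD-L1 low it was 80.3%. Of the ATF4 list, 33 genes were at least 2-fold higher in PD-L1 low than in PD-L1 high, and unsorted H69M lay at -64.8% to 19.6%, with a median of -0.51%. For 8 glycolysis and hypoxia genes of that kind it lay at -1.37% to 19.7%, with a median of 8.0%. Another 8 glycolysis and hypoxia genes were at least 2-fold lower in PD-L1 low than in PD-L1 high, and for these it lay at 74.4% to 130.4%, with a median of 86.1%. Of all 39, 22 were higher and 13 lower than in PD-L1 high, and 27 were higher and 8 lower than in unsorted H69M. Neuroendocrine genes higher in PD-L1 low were placed elsewhere, with a median of 68.7% for 14 secretory granule genes and 69.7% for 22 synaptic genes. These places are descriptions and were not tested, and they rest on the same PD-L1 low libraries. Against unsorted H69M directly, 49 of the 50 ATF4 list genes were higher and none was lower, where 32.6% and 33.0% of all genes were; both comparisons share the PD-L1 low libraries with the one against H69.

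**Figure D4:**
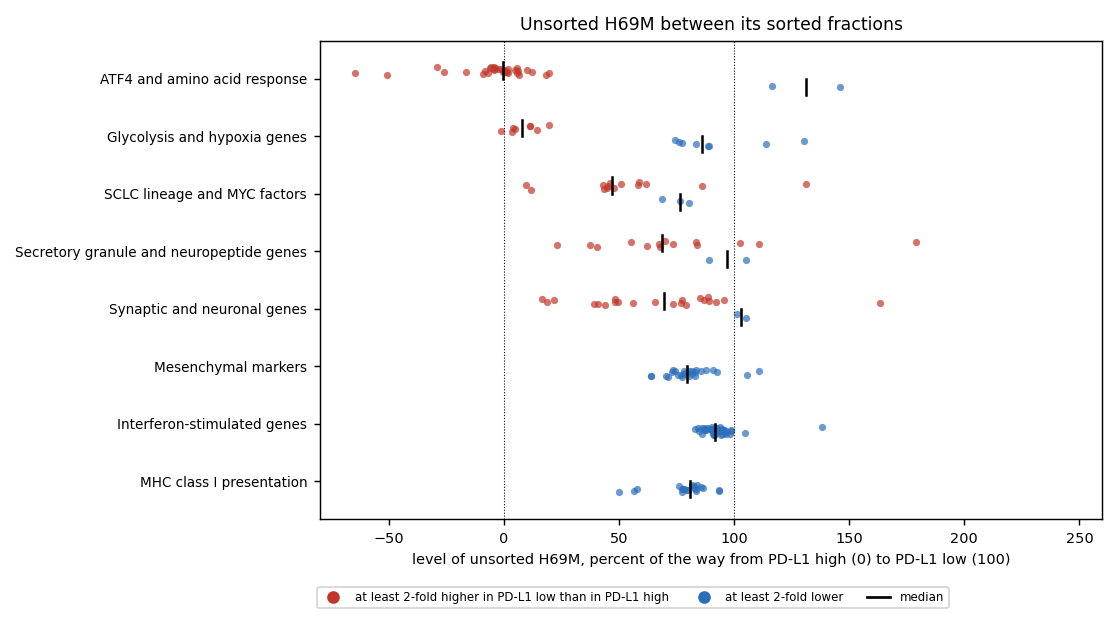
Each point is a gene at least 2-fold different between the PD-L1 low and PD-L1 high fractions, placed by the mean level of unsorted H69M from 0% (PD-L1 high) to 100% (PD-L1 low). Black bars are medians. Red genes are higher and blue genes lower in PD-L1 low. The red ATF4 and hypoxia genes sit near 0%, the red lineage, granule and synaptic genes have medians of 46.8%, 68.7% and 69.7%, and the blue mesenchymal, interferon and MHC class I genes have medians of 79.6%, 91.7% and 80.8%.

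Lineage factors of neuroendocrine SCLC were mostly higher than in H69. Of 24 tested lineage and MYC family genes, 15 were higher, 8 were lower and 8 were at least 2-fold higher, with a median log2 fold change of 0.44. NKX2-1, the lung lineage factor, went from 18.7, 18.1 and 17.8 CPM to 60.3, 63.2 and 63.0 CPM (1.77 ± 0.06, adjusted p = 2.1e-15), and POU3F2, a neural factor, from 14.3, 14.6 and 13.3 CPM to 112, 115 and 115 CPM (3.01 ± 0.06, adjusted p = 1.3e-18). The groups did not overlap for either factor, as for 75.5% of all genes in either direction. The neural splicing factor SRRM4 rose by 2.62 ± 0.12, LMX1A by 3.82 ± 0.18, and SOX2 and FOXA2 by 0.52 ± 0.05 and 0.48 ± 0.05. FOXA1 fell by 1.00 on the log2 scale (adjusted p = 1.33e-12). NEUROD1, the factor of another SCLC subtype, was at 1.01, 0.831 and 0.807 CPM in H69 and 0.0886, 0.0930 and 0 CPM in PD-L1 low.

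The MYC family did not move as 1 unit. MYCN, the oncogene amplified in this line, was at 1607, 1514 and 1561 CPM in H69 and 1521, 1478 and 1454 CPM in PD-L1 low, with overlapping values and no call (-0.07 ± 0.04, adjusted p = 0.143). MYCL was low in H69, at 0.483, 0.264 and 0.484 CPM, and higher in PD-L1 low, at 4.56, 3.95 and 3.91 CPM (3.39 ± 0.23, adjusted p = 6.32e-11). MYC was at 3.63 ± 0.354 CPM and 2.56 ± 0.315 CPM (SD, n = 3) and was lower (-0.46 ± 0.14, adjusted p = 0.00691).

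Secretory granule genes leaned upward and synaptic genes divided. Of 19 tested granule and neuropeptide genes 13 were higher and 4 lower, with only 2 at least 2-fold higher and a median of 0.30. The prohormone convertases PCSK1 and PCSK2 rose by 0.97 ± 0.05 and 0.90 ± 0.05, and the neuropeptide GRP by 0.30 ± 0.07. SCGN, a calcium sensor, fell from 142, 148 and 161 CPM to 65.4, 66.6 and 64.0 CPM (-1.20 ± 0.06, adjusted p = 1.81e-13). Of 30 synaptic and neuronal genes, 15 were higher and 13 lower, with a median of 0.10. STMN2, a regulator of axonal microtubules, went from 71.6, 67.0 and 73.8 CPM to 312, 294 and 312 CPM (2.12 ± 0.05, adjusted p = 1.15e-17). The neurofilament NEFL went from 0.443, 0.453 and 0.0807 CPM to 29.4, 30.0 and 31.2 CPM (6.30 ± 0.17, adjusted p = 3.34e-17), though it was highest in PD-L1 high at 213 ± 12.5 CPM (SD, n = 3). Lower genes were the microtubule protein DCX (-0.87 ± 0.05), the vesicle protein SYT4 (-1.31 ± 0.09) and the growth cone protein GAP43 (-1.50 ± 0.13). DLL3, an inhibitory Notch ligand and SCLC surface antigen, went from 35.9, 36.5 and 36.9 CPM to 77.8, 68.5 and 75.0 CPM (1.02 ± 0.07, adjusted p = 4.98e-11).

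NOTCH1 and NOTCH3, receptors of a pathway that opposes the neuroendocrine program in SCLC, rose from low levels. NOTCH1 was at 2.05, 2.08 and 2.18 CPM in H69 and 18.2, 17.4 and 20.8 CPM in PD-L1 low (3.16 ± 0.14, adjusted p = 1.13e-13). NOTCH3 was at 0.0402, 0.113 and 0.0807 CPM in H69 and 15.3, 12 and 17.7 CPM in PD-L1 low (7.45 ± 0.32, adjusted p = 5.53e-14), which is 9.13% of its PD-L1 high mean. The target genes HES1 and HES4 rose by 2.56 ± 0.07 and 2.99 ± 0.11, while HEY1 and HEY2 were lower (-0.34 ± 0.06 and -1.07 ± 0.07). NOTCH2 was not called (-0.06 ± 0.07, adjusted p = 0.403). The coactivator MAML2 fell from 55.5, 52.1 and 56.1 CPM to 11.97, 13.6 and 14.5 CPM (-2.04 ± 0.08, adjusted p = 7.72e-15). Over the 24 genes of the pathway 14 were higher and 6 lower, and the median was 0.33.

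Receptor tyrosine kinases and their ligands were mostly higher, with 27 of 38 tested genes higher (71.1%) and 9 lower (23.7%). At least 2-fold higher were 19 and at least 2-fold lower 5. The median was 1.10 (1.03 with the 3 genes without a count in H69 at their bound). ERBB3, a receptor for neuregulins, rose from 2.13, 2.76 and 3.07 CPM to 50.4, 44.8 and 50.9 CPM (4.23 ± 0.11, adjusted p = 4.08e-17), above its level of 6.13 ± 0.968 CPM in PD-L1 high (SD, n = 3). MET, the receptor of hepatocyte growth factor, fell from 218, 206 and 238 CPM to 62.5, 65.5 and 63.3 CPM (-1.79 ± 0.06, adjusted p = 6.67e-16), and was at 302 ± 8.85 CPM in PD-L1 high. FGFR1 rose by 1.41 ± 0.07 and KIT by 0.84 ± 0.05. The lower receptors included NTRK2, at 5.96, 7.21 and 6.38 CPM in H69 and 0.488, 0.744 and 0.868 CPM in PD-L1 low (-3.26 ± 0.21, adjusted p = 2.27e-11).

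Mesenchymal genes were above H69 and far below the PD-L1 high fraction. Of 31 tested markers, 26 were higher, 4 lower and 23 at least 2-fold higher than in H69, with a median of 3.54 (2.90 with the 2 genes without a count in H69 at their bound), and 28 were lower than in PD-L1 high and none higher (39.0% and 39.4% of all genes). VIM, the mesenchymal filament protein, was at 0, 0.189 and 0.0807 CPM in H69, 18.6, 18.5 and 33.9 CPM in PD-L1 low and 1719 ± 45.5 CPM in PD-L1 high (SD, n = 3), a log2 fold change against H69 of 7.84 ± 0.40 (adjusted p = 6.09e-13). The matrix protein SPARC was at 0, 0.264 and 0.0807 CPM, 19.7, 21.5 and 40.6 CPM and 2327 ± 22.3 CPM in the same order (7.65 ± 0.42, adjusted p = 2.59e-12). In both genes PD-L1 low replicate 3 was well above replicates 1 and 2. Because H69 had few counts of either, the fold change was 7.16 without H69 replicate 1 and 9.43 without H69 replicate 2 for VIM, and 6.96 and 9.63 for SPARC. FN1, at 0.402, 0.642 and 0.565 CPM in H69 and 10.2, 10.5 and 26.6 CPM in PD-L1 low, showed the same order (4.78 ± 0.42, adjusted p = 2.55e-09).

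The YAP and Hippo list, whose factor YAP drives adhesion and matrix genes, had 21 of 28 genes higher, 3 lower and 16 at least 2-fold higher, with a median of 1.41 (1.19 with the 3 genes without a count in H69 at their bound). Filtering on the 6 compared libraries alone left 24 of its genes tested, 17 higher and 3 lower, with a median of 0.98. The non-neuroendocrine SCLC signature had 15 of 25 higher, 6 lower and 13 at least 2-fold higher, with a median of 1.16. The summed level of neither list rose with these counts. The signature summed to 660 to 771 CPM in H69 and 464 to 511 CPM in PD-L1 low. The YAP and Hippo list summed to 1450 to 1469 CPM in H69 and 1357 to 1442 CPM in PD-L1 low.

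Replicate 3 stood apart across these lists. Among 34 genes of the mesenchymal, non-neuroendocrine and YAP lists with a mean under 1 CPM in H69 and at least 10 CPM in PD-L1 high, PD-L1 low replicate 3 was the highest of its group for 30, and it was over 1.5 times the mean of the other replicates for 24. As a share of the PD-L1 high mean, the median level was 0.833%, 0.804% and 1.67% in the 3 PD-L1 low libraries and 0.0278%, 0.0290% and 0.0156% in the 3 H69 libraries. Under 5% of PD-L1 high were 31 of the 34, and none reached 20%. The part of residual PD-L1 high cells in these results was not tested. Without replicate 3, the mesenchymal list had 24 higher and 4 lower members and a median of 2.88, and the YAP and Hippo list had 19 higher and 3 lower and a median of 1.17; the log2 fold change of CTGF, a YAP target, went from 4.23 ± 0.92 to 2.87, and that of ACTA2, a smooth muscle actin, from 2.56 ± 0.83 to 0.74, where it was no longer called (adjusted p = 0.131).

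**Figure D5:**
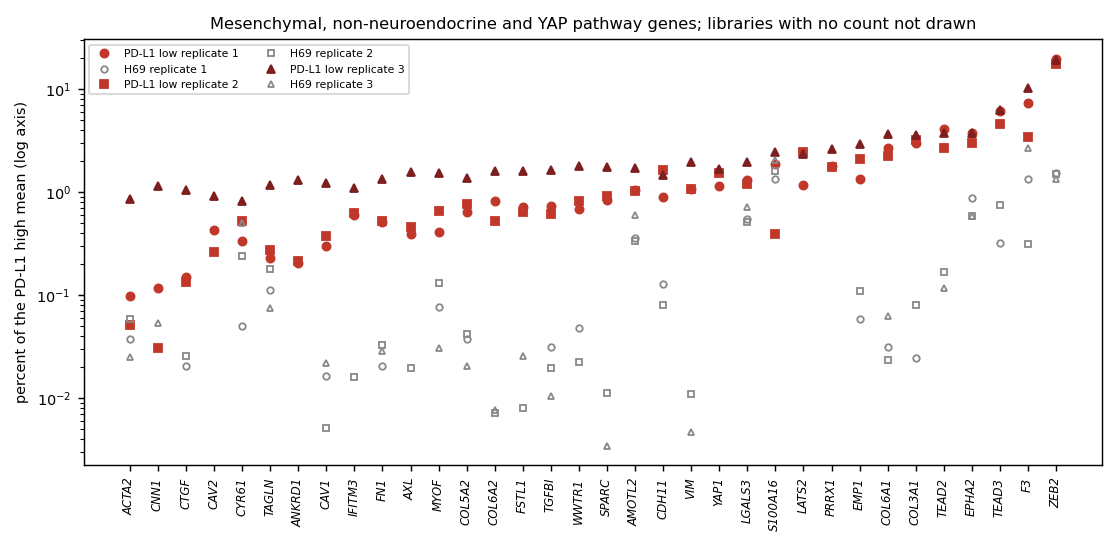
Level of 34 mesenchymal, non-neuroendocrine and YAP pathway genes in each PD-L1 low library (filled) and H69 library (open), as a percent of the PD-L1 high mean on a log axis, sorted by the PD-L1 low mean, with libraries at 0 not drawn. Filled triangles, PD-L1 low replicate 3, are the highest of their group for 30 of 34 genes, and ZEB2 at the right is the highest of all.

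Some mesenchymal regulators stood well above those shares, with 3 libraries close together. ZEB1, a repressor of epithelial genes, was at 2.94, 2.64 and 2.58 CPM in H69 and 30.5, 31.1 and 34.9 CPM in PD-L1 low (3.54 ± 0.09, adjusted p = 3.03e-17), or 36.3% of PD-L1 high. Its relative ZEB2 was at 0.926, 0.906 and 0.807 CPM and 11.8, 10.5 and 11.5 CPM (3.64 ± 0.13, adjusted p = 2.3e-15), or 18.9% of PD-L1 high. N-cadherin, CDH2, went from 80.6, 84.6 and 95.2 CPM to 530.3, 548 and 525 CPM (2.63 ± 0.06, adjusted p = 2.38e-18), or 37.2% of PD-L1 high. SNAI2 and TWIST1 were lower than in H69 (-1.19 ± 0.08 and -0.72 ± 0.07), as was the adhesion receptor CD44 (-1.15 ± 0.07, adjusted p = 9.68e-12). S100A6, a calcium-binding protein of the non-neuroendocrine list, fell from 199, 233 and 242 CPM to 47.1, 45.0 and 41.1 CPM (-2.33 ± 0.08, adjusted p = 2.93e-15).

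Other cell types were checked by their markers. Leukocyte markers summed to 3.51 to 4.35 CPM in H69 and 1.86 to 2.79 CPM in PD-L1 low, and only 3 of 15 had enough counts to be tested. Of 15 tested fibroblast and stromal markers, some of them also on the mesenchymal list, 11 were higher, 10 of them at least 2-fold, and 2 were lower, with a median of 2.01. Their sums were 686 to 719 CPM in H69 and 651 to 752 CPM in PD-L1 low, since POSTN, a matrix protein that holds much of the sum, was lower (453 ± 12.7 CPM in H69 and 319 ± 4.65 CPM in PD-L1 low, SD, n = 3). Of 12 tested endothelial markers 4 were higher and 3 lower. The median was 1.10, and 0.01 with the 2 genes without a count in H69 at their lower bound. Filtering on the 6 compared libraries alone left 6 endothelial markers tested, 3 higher and 2 lower, with a median of 0.21. Their sums were 52.7 to 59.3 CPM in H69 and 21.7 to 23.3 CPM in PD-L1 low, where the junction protein CLDN5 was the main contributor (46.0 ± 3.29 and 11.5 ± 0.241 CPM, SD, n = 3).

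Antigen presentation genes differed from H69 in both directions. All 22 were tested, and 11 were higher (50%) and 8 lower (36.4%), against 39.0% and 36.9% of all genes. The median was 0.31 (0.10 without PD-L1 low replicate 3). Their summed level was lower, at 4775, 4742 and 5215 CPM in H69 and 2479, 2434 and 2503 CPM in PD-L1 low. All 22 were lower than in PD-L1 high, where 39.0% of all genes were. The immunoproteasome subunit PSMB8 rose from 0.322, 0.189 and 0.323 CPM to 5.89, 5.72 and 5.57 CPM (4.40 ± 0.20, adjusted p = 1.09e-13). PSMB9 had no count in H69 and was at 0.931, 0.977 and 1.01 CPM in PD-L1 low, at least 20.5-fold higher. PSME1, an activator of the proteasome, rose by 1.19 ± 0.06 (adjusted p = 3.52e-13). The heavy chain HLA-C was slightly higher (0.28 ± 0.06, adjusted p = 0.000338); how reads shared by HLA genes were counted is not stated, which leaves this value uncertain. B2M, the light chain, was lower (-0.57 ± 0.05, adjusted p = 5.39e-09). The loading factors TAPBP, CANX and PDIA3 were lower (-0.50 ± 0.06, -0.87 ± 0.04 and -1.19 ± 0.06).

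Interferon-stimulated genes were far below PD-L1 high, with 47 of 48 lower against 39.0% of all genes. They were mostly higher than in H69, with 30 higher (62.5%), 7 lower (14.6%) and 22 at least 2-fold higher. The median was 1.36, or 1.00 with the 5 genes without a count in H69 at their bound. Without PD-L1 low replicate 3, 26 were higher and the median was 0.88. Some members passed the filter only through the other H69M libraries. With the 6 compared libraries alone, 29 were tested, 18 were higher and 7 lower, and the median was 0.72. UBE2L6, the conjugating enzyme for ISG15, was at 0.402, 0.0378 and 0.0807 CPM in H69 and 10.4, 9.72 and 10.3 CPM in PD-L1 low (5.71 ± 0.26, adjusted p = 1.01e-13), and its fold change was 7.45 without H69 replicate 1 and 5.07 without H69 replicate 2. PARP9 and DTX3L, partners in a ubiquitin ligase complex, rose by 3.04 ± 0.19 and 1.97 ± 0.11. SAMD9 fell from 41.7, 39.2 and 38.3 CPM to 10.5, 11.5 and 12.9 CPM (-1.79 ± 0.07, adjusted p = 2.98e-14), and USP18, which removes ISG15, fell by 0.92 on the log2 scale.

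Several of the largest shifts against H69 were in genes that unsorted H69M also expressed. IGF2BP1, an oncofetal mRNA-binding protein, was at 0.885, 1.06 and 0.404 CPM in H69 and 159, 159 and 167 CPM in PD-L1 low (7.54 ± 0.11, adjusted p = 1.16e-20), with 165 ± 7.32 CPM in unsorted H69M and 128 ± 5.40 CPM in PD-L1 high (SD, n = 3). The SRC family kinase YES1 went from 6.60, 6.57 and 6.54 CPM to 204, 221 and 224 CPM (5.04 ± 0.07, adjusted p = 1.16e-20), with 235 ± 11.3 CPM in unsorted H69M. Against unsorted H69M the PD-L1 low difference was -0.04 ± 0.06 for IGF2BP1 (adjusted p = 0.605) and -0.12 ± 0.05 for YES1 (adjusted p = 0.0428). SLITRK2, a synaptic adhesion protein, had no count in any H69 library and was at 19.7, 23.5 and 22.1 CPM in PD-L1 low, at least 461-fold higher. ABAT, which breaks down the transmitter GABA, rose by 6.75 ± 0.10, and GLDC, of the glycine cleavage system, by 5.31 ± 0.10.

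The reverse shifts removed abundant H69 transcripts. ADCY1, a calcium-stimulated adenylyl cyclase, was at 236, 226 and 249 CPM in H69 and 3.19, 2.33 and 2.39 CPM in PD-L1 low (-6.46 ± 0.10, adjusted p = 1.16e-20). GSTP1, a glutathione transferase, fell from 195, 198 and 215 CPM to 4.70, 3.07 and 4.92 CPM (-5.60 ± 0.10, adjusted p = 7.3e-20), and was at 151 ± 1.20 CPM in PD-L1 high. The metallothioneins, which bind zinc and copper, were among the lowest: MT1G went from 34.4, 36.7 and 42.7 CPM to 0.177, 0.0930 and 0 CPM (-8.42 ± 0.22, adjusted p = 3.4e-17), MT1X differed by -5.79 ± 0.14 and MT2A by -4.82 ± 0.14; the MT1 genes are close copies, and how their shared reads were counted is not given. Without PD-L1 low replicate 1 the MT1G value was -9.21. The nuclear RNA NEAT1 fell from 376, 269 and 113 CPM to 9.04, 12.8 and 11.4 CPM (-4.53 ± 0.31, adjusted p = 7.23e-11), with a wide spread among the H69 libraries and no overlap.

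Other genes marked PD-L1 low against all 3 other groups. In the 3 contrasts, which share the PD-L1 low libraries, 2597 genes were above all other groups and 2226 below all of them, and 560 and 244 were at least 2-fold so in each. ALOX15, a lipoxygenase, had no count in H69 and was at 7.98, 7.63 and 7.38 CPM in PD-L1 low, at least 164-fold higher, with 0.186 ± 0.0405 CPM in unsorted H69M and 0.0846 ± 0.0759 CPM in PD-L1 high (SD, n = 3). The G1 cyclin CCND2 had 3 counts in H69 against 313 in PD-L1 low, a ratio of 115 in depth-scaled counts (95% exact interval 38.9 to 559.9, counting error only). Both phosphodiesterases PDE4C and PDE2A were high, PDE4C at 0.161, 0.113 and 0.0807 CPM in H69 and 10.8, 10.5 and 10.5 CPM in PD-L1 low (6.33 ± 0.21, adjusted p = 8.15e-16), and PDE2A with a rise of 2.78 ± 0.11. The lowest genes included DAPK1, a death-associated kinase, which fell from 7.81, 7.55 and 8.07 CPM to 0.133, 0.0465 and 0.145 CPM (-6.15 ± 0.23, adjusted p = 4.89e-15). FGF13, an intracellular partner of sodium channels, fell from 15.5, 16.3 and 12.5 CPM to 0, 0.0930 and 0.145 CPM (-7.64 ± 0.28, adjusted p = 5.34e-15), and the synaptic catenin CTNND2 from 67.7, 63.1 and 66.3 CPM to 0.0443, 0.0465 and 0.145 CPM (-9.77 ± 0.17, adjusted p = 1.19e-19). With so few counts left in PD-L1 low, the FGF13 fold change was -6.95 without PD-L1 low replicate 1.

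Growth and cell cycle genes were split. Of 29 proliferation genes 11 were higher and 9 lower with a median of 0.04, and MKI67, the Ki-67 antigen, was at 422, 364 and 439 CPM in H69 and 288, 286 and 326 CPM in PD-L1 low (-0.44 ± 0.08, adjusted p = 4.78e-05). Ribosome proteins were slightly lower as a group, with 21 of 34 lower, 1 higher, none 2-fold, and a median of -0.26; scaling by library totals alone gave 19 lower, 3 higher and -0.16. CCND1 fell from 50.6, 47.9 and 45.4 CPM to 17.9, 14.5 and 18.2 CPM (-1.52 ± 0.08, adjusted p = 7.42e-13). The CDK inhibitor CDKN1A and the ubiquitin ligase MDM2 were lower (-1.12 ± 0.05 and -1.35 ± 0.06). The list of D cyclins, CDK inhibitors and p53 targets as a whole was divided. Of its 20 tested genes 7 were higher (35%) and 8 lower (40%), against 39.0% and 36.9% of all genes. At least 2-fold higher were 3 and at least 2-fold lower 4, and the median was 0.00. The linker histone H1F0 had the largest difference in CPM, not corrected for length, of the genes at least 2-fold higher, from 287, 301 and 307 CPM to 1303, 1273 and 1270.2 CPM (2.10 ± 0.05, adjusted p = 4.1e-18), and TXNIP, a glucose-responsive inhibitor of glucose uptake, went from 64.9, 67.8 and 59.9 CPM to 519.5, 473 and 553 CPM (3.00 ± 0.07, adjusted p = 4.59e-18).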

How the data were processed

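RNA from H69 and H69M cells was made into exome-capture libraries and sequenced, per the labels' protocols. The authors deposited read counts per gene by symbol; STAR 2.6.1 and the human build hg19 appear in the submitters' processing notes. The counting program, its strand setting and its gene annotation are not given in the sources used, and overlapping, antisense and near-identical genes could not be separated. Groups came from the labels of title, sort and MHC class I status.

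Counts were fitted with edgeR 4.0.16 (R 4.3.3, limma 3.58.1) by its quasi-likelihood method, after filterByExpr with a minimum count of 10 and TMM scaling, with 1 coefficient per group over 12 libraries of H69, H69M and its 2 fractions, so that all share 1 estimate of spread. Genes with a Benjamini-Hochberg adjusted p under 0.05 were called, and a 2-fold minimum was added where stated. SEs come from the fold change and its F statistic. With no count in H69, folds are lower bounds against 3 counts over the group, for counting error only. No 2 libraries of a group agreed within sampling noise. Alternatives were DESeq2 1.42.0 size factors and Wald test, limma-voom, library totals, other filters, the 6 libraries alone, glmTreat, a replicate block, and leaving out each library. Genes named are list members, the 20 highest and 20 lowest by change in log2(mean CPM + 1), the 15 most above and below all other groups, and the 12 largest CPM differences among genes at least 2-fold apart. Members and lists were chosen with earlier results of these data known. Promoters are from RefSeq (GRCh38.p14), matched by symbol. Some list members are counted in their lists and not reported by name here.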

Additional observations from a re-analysis of the deposited data

How the results depend on the processing

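The counts of 11723 changed genes and 3933 genes at least 2-fold apart kept their size, within 1.5 times, under all but 2 settings. Requiring a minimum count of 100 in place of 10 left 12559 genes and 2566 at least 2-fold apart. Testing against a 1.5-fold change with glmTreat called 5199 genes, since it asks for a larger change. Leaving out 1 library at a time gave 11262 to 11744 changed genes and 3984 to 4058 at least 2-fold apart. Scaling by library totals alone moved the median from 0.02 to 0.12 and the share of calls that were higher from 51.4% to 58.1%. With the 6 compared libraries alone, 14653 genes passed the filter, of which 11099 were changed and 3572 at least 2-fold apart. A fit with the replicate number as a block gave 11486 and 3924 genes. The numbers did not pair the samples: same-numbered PD-L1 low and H69 libraries had deviations that correlated at -0.0856, 0.0946 and -0.0227 across genes, and PD-L1 low replicate 1 correlated best with H69 replicate 3 (0.122). The block changed the call of CD274 (adjusted p = 0.0517). Genes with few counts in 1 group limit the size of the largest fold changes.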

Other observations

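Other gene lists showed smaller or divided differences between PD-L1 low and H69. Of 34 tested HOX genes, which set positional identity, 16 were lower and 12 higher, with a median log2 fold change of -0.21. Of 23 imprinted and IGF-axis genes, 14 were higher and 9 lower, and 8 were at least 2-fold higher, with a median of 0.71. PEG10, an imprinted gene of retroviral origin, went from 1336, 1274 and 1500.1 CPM in H69 to 2708, 2661 and 2744 CPM in PD-L1 low (0.98 ± 0.05, adjusted p = 2.33e-12 by edgeR's quasi-likelihood test). Epithelial markers were lower for 14 of 24 and higher for 6, with a median of -0.28. The epithelial cadherin CDH1 went against this lean. Its levels were 26.9, 28.4 and 31.2 CPM in H69 and 73.5, 70.7 and 70.7 CPM in PD-L1 low (1.33 ± 0.07, adjusted p = 2.67e-12).

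Members of PRC2, the complex that places the repressive mark H3K27me3, and the H3K27 demethylases were higher for 8 of 14 and lower for 4, with a median of 0.23. EZH2, its catalytic subunit, was at 302 ± 7.62 CPM in H69 and 313 ± 6.60 CPM in PD-L1 low (SD, n = 3) and was not called (0.05 ± 0.05, adjusted p = 0.328), though library totals alone as the scale called it at 0.15. Voltage-gated ion channel genes divided evenly, with 10 of 23 higher and 10 lower. Enzymes of cholesterol synthesis also divided evenly, with 9 of 24 in each direction and none at least 2-fold. Immediate early genes were higher for 14 of 28 and lower for 6, with a median of 0.33.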
